A study of Mus musculus with 2 samples.

Results

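The genes described here are 9 members of the Wnt pathway in the mouse prostate: the ligands Wnt2, Wnt4, Wnt5a and Wnt10a, the secreted antagonists Sfrp1 and Sfrp2, the R-spondin Rspo3, its receptor Lgr4 and the target gene Axin2. They were chosen by name, with earlier results of these data known. All 9 were found among the 32285 genes listed for each of 2 single-cell RNA libraries. Both libraries came from prostates of wild-type male C57BL6 mice, dissociated with papain and then TrypLE, and passed through strainers. Only preparations with mostly live, separate cells were used, and 5000 cells were targeted. The ventral library was prepared from the ventral lobes with the 3′ kit of 10x Genomics in version 2. The proximal library was prepared from the proximal and periurethral region with version 3. Neither group carried a transgene or a treatment according to the labels. The age and number of the mice are not given in the sources used here.

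Wnt proteins are secreted ligands that bind Frizzled receptors, with or without an Lrp co-receptor. In the canonical branch they keep beta-catenin from being degraded, so that it can act with TCF/LEF factors on target genes, of which Axin2, itself a negative regulator, is among the most general. Sfrp proteins bind Wnt ligands outside the cell, and R-spondins, through Lgr receptors, keep Frizzled receptors at the surface. In the developing prostate and in its adult stem cell niche, Wnt signals pass between stroma and epithelium.

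Each group had 1 library, so no difference has a replicate check and no test was made. Levels are given as CPM. For these, the unique molecular identifiers (UMIs, which tag single captured RNA molecules) were summed over the cells of a class and scaled to a total of 1000000. Intervals are exact 95% intervals, and they cover counting error only. The ventral library kept 1988 cells at a median of 25759 UMIs, the proximal library 3705 at a median of 15260, and they shared 0 barcodes. Clusters were called after the marker list they resembled, so "basal-like" and the like are rebuilt names. The ventral library held 142 basal-like, 93 proximal luminal-like, 1668 distal luminal-like and 30 macrophage-like cells, and no fibroblast-like cluster. The proximal library held 910 basal-like, 673 proximal luminal-like, 706 distal luminal-like, 516 fibroblast-like and 79 macrophage-like cells.

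The names were checked against their markers. All 8 fibroblast markers were found in proximal fibroblast-like cells, at a summed 9545 CPM against 27.3 to 1343 CPM in the 3 epithelial-like classes there. The ventral basal-like cluster also held all 8, at 5355 CPM beside 4595 CPM for its own 7 markers. Its Col1a1 was 9.54 CPM and its Col3a1 27.3 CPM, against 667 and 1046 CPM in proximal fibroblast-like cells. Others of the 8 went the other way, and Dcn was among the leading genes of this cluster. In ventral proximal luminal-like cells, 34 of 93 held over 5% of their UMIs from the secretory genes Sbp and Spink1. Across the ventral distal luminal-like cells these 2 genes made up 45.9% of all UMIs, against 16.2% in the proximal library. In ventral macrophage-like cells they made up 21.1%, with 2 of 30 cells over 5%. Macrophage-like cells were used as a measure of free RNA. In the proximal library they held 22.4 CPM (upper limit 33.8) of Wnt4, 6.10 CPM (2.24 to 13.3) of Lgr4, 3.05 CPM of Sfrp2 and 1.02 CPM of Wnt2, and 0 UMIs of the other 5 genes, which allows up to 3.75 CPM by the interval. Of the 22 Wnt4 UMIs, 45.5% came from 1 cell, and whether these are free RNA was not tested. The 30 macrophage-like cells of the ventral library held 5.78 CPM (upper limit 32.2) of Lgr4, from 1 UMI, and 0 UMIs of the other 8 genes, which allows up to 21.3 CPM. Levels of the ventral library whose intervals start under these limits were not separated from background, among them Lgr4 in all 3 epithelial-like classes, distal luminal-like Wnt4 and every level of Axin2.

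Start sites are shown for 3 genes that were high in a luminal cluster described further on: Wnt4, Axin2 and Sp5, a zinc finger gene that canonical Wnt signals induce. RefSeq windows of 300 bases, 250 before the start site and 50 from it on, were matched by symbol for 5 of the 9 genes (Wnt2, Wnt4, Sfrp2, Lgr4 and Axin2) and for Sp5. They are on build GRCm38.p6, read 5′ to 3′ on the plus strand, at chr4:137277385-137277684 for Wnt4, chr11:108920099-108920398 for Axin2 and chr2:70474673-70474972 for Sp5. Capitals mark the TCF/LEF motif, searched on both strands as CTTTGAA and as CTTTGAT, and likewise as CTTTGTA and as CTTTGTT.
Wnt4: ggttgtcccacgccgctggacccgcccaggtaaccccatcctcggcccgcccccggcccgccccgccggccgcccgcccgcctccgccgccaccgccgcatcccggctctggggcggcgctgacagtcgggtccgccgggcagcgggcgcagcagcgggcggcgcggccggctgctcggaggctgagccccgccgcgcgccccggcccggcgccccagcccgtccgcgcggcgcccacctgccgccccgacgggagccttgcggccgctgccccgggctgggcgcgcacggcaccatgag
Axin2: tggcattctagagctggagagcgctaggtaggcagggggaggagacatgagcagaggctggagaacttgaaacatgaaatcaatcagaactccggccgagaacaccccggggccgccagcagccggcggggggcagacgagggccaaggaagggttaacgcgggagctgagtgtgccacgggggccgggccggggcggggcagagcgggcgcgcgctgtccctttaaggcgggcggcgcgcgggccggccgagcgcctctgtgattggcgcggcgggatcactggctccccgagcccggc
Sp5: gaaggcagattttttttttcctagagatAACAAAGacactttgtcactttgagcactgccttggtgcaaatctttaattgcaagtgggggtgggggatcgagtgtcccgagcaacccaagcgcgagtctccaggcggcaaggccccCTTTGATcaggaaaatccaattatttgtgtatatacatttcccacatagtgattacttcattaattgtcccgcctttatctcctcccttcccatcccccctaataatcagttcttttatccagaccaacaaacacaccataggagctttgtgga
The motif was found in 2 places in the Sp5 window, beginning 222 and 104 bases before the start site, and in 0 of the 5 windows of the 9 genes. Of 27025 genes with a window, 16.9% held at least 1 match. G and C made up 84.3% of the Wnt4 window, 70% of the Axin2 window and 45% of the Sp5 window. A match or its absence describes these letters in this window only.

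The first question was which cells of the proximal region held each gene. Fibroblast-like cells were set against the 2289 basal-like, proximal luminal-like and distal luminal-like cells together. Of the 9 genes, 7 were at least 2-fold higher in fibroblast-like cells, 1 was at least 2-fold lower and Wnt4 lay between. Over all 19377 genes with at least 10 UMIs in the groups together, 27.2% were 2-fold higher and 14.5% lower, 41.7% in all. The median log2 ratio was 4.51 over the 9 genes and 0.17 over all genes compared. As the 9 genes were chosen with earlier results of these data known, the excess over all genes is a description only.

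**Figure D1:**
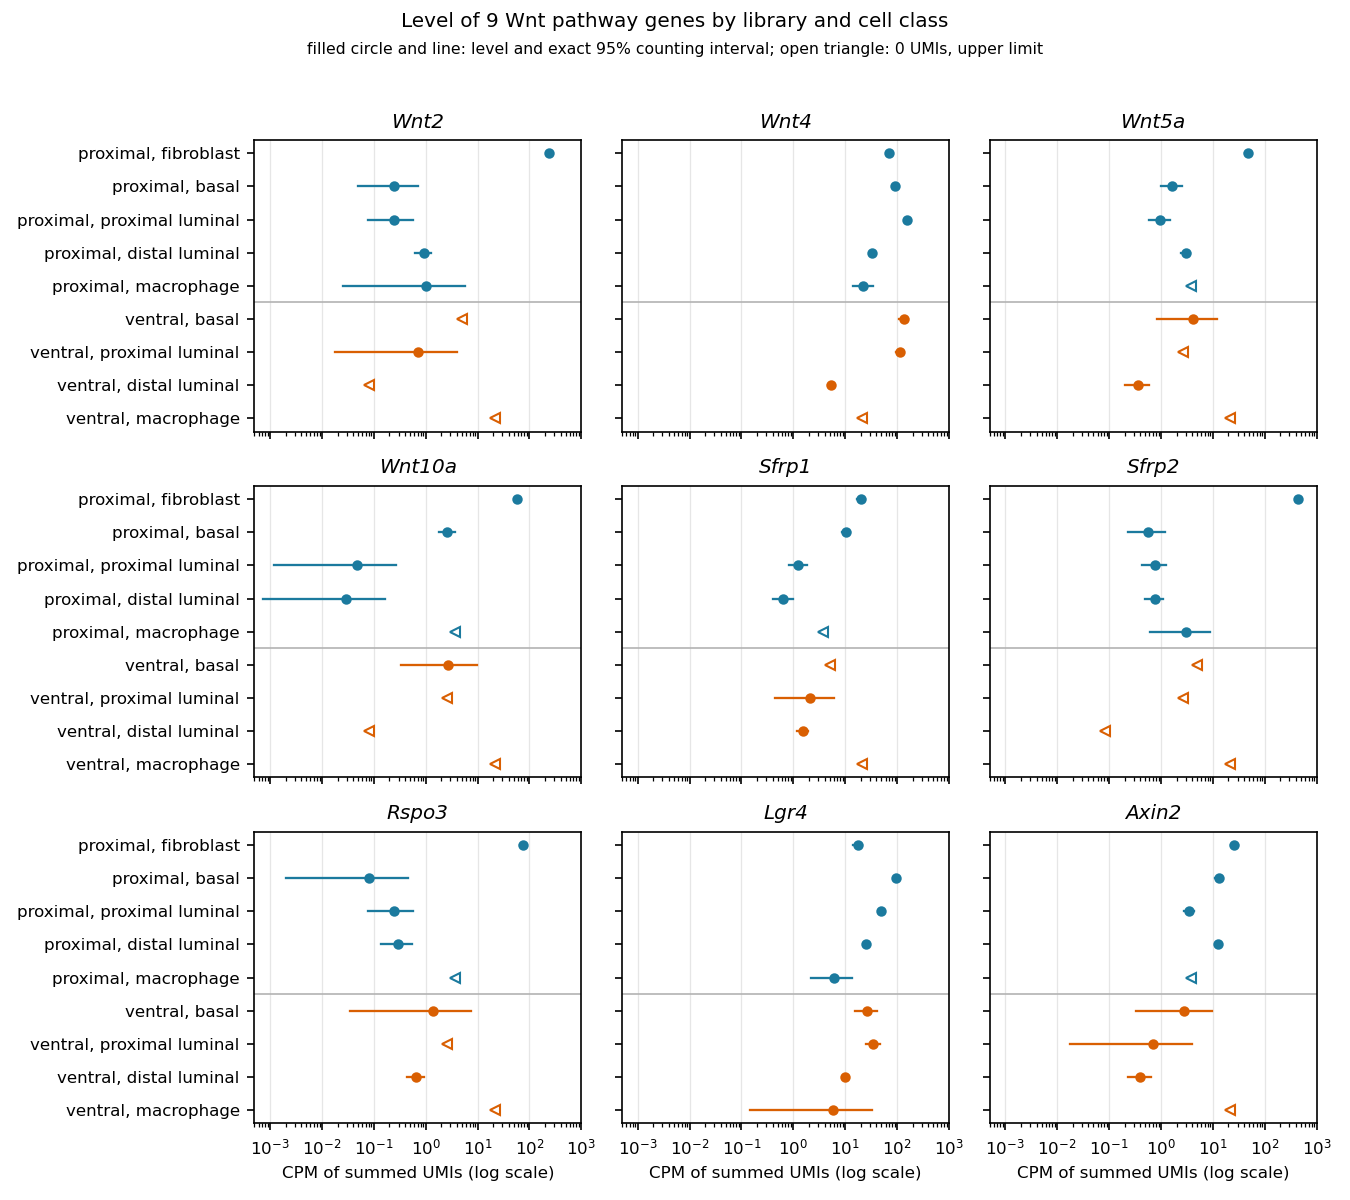
Level of each of the 9 genes (CPM of summed UMIs, log axis) by library and cell class, blue for the proximal and orange for the ventral library. Circles are levels with exact 95% counting intervals and open triangles are upper limits where 0 UMIs were found. Wnt2, Sfrp2 and Rspo3 stand 2 or more powers of 10 higher in proximal fibroblast-like cells than in the epithelial-like classes there, while Wnt4 reaches 153 CPM in proximal luminal-like cells.

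Among the ligands, Wnt2 (ENSMUSG00000010797, chr6:17988940-18030585, minus strand, GRCm38) was the one most restricted to fibroblast-like cells. Wnt2, a canonical ligand of mesenchyme in several organs, measured 233 CPM (220 to 246) there, 0.909 CPM (0.617 to 1.29) in distal luminal-like, 0.245 CPM in basal-like and 0.240 CPM in proximal luminal-like cells. These epithelial-like levels all lay below the upper limit of Wnt2 in macrophage-like cells, 5.66 CPM, and were not separated from background. Fibroblast-like cells were 401-fold (292 to 566) above the epithelial-like cells in Wnt2 and gave 96.5% of all Wnt2 UMIs of the library. After every cell was thinned to 2000 UMIs, Wnt2 was found in 28.1% (24.1 to 32.3) of 474 fibroblast-like cells, against 49.0% unthinned.

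Wnt10a (ENSMUSG00000026167, chr1:74791516-74804179), a canonical ligand known from hair and tooth development, measured 57.8 CPM (51.6 to 64.5) in fibroblast-like and 2.62 CPM (1.79 to 3.70) in basal-like cells. Its level was under 0.05 CPM in each luminal class, from 1 UMI apiece, and all 3 epithelial-like levels lay below the macrophage-like limit of 3.75 CPM. The ratio of fibroblast-like to epithelial-like cells was 114 (80.0 to 168). Wnt5a (ENSMUSG00000021994, chr14:28504750-28527448), which mostly signals without beta-catenin and restrains branching in prostate buds, measured 48.2 CPM (42.5 to 54.4) in fibroblast-like cells. Distal luminal-like cells followed with 2.99 CPM (2.44 to 3.63), basal-like cells with 1.64 CPM (1.00 to 2.53) and proximal luminal-like cells with 0.961 CPM (0.587 to 1.48). The intervals of the last pair overlap, and all 3 levels lie below the macrophage-like limit. Fibroblast-like cells were 22.8-fold (18.5 to 28.2) above the epithelial-like cells in Wnt5a and gave 61.4% of its UMIs.

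Wnt4 (ENSMUSG00000036856, chr4:137277489-137299726) had another distribution. This ligand, which acts in kidney and reproductive tract formation, measured 153 CPM (148 to 159) in proximal luminal-like cells, the highest of the named classes of the proximal library. Unnamed clusters 2, 3 and 10 there, 701 cells whose best-scoring class was proximal luminal, held more, at 306, 226 and 178 CPM. Their leading genes included periurethral markers in clusters 2 (Upk3a and Ly6d) and 10 (Krt6a and Sprr1a), and erythroid markers in cluster 3. It fell to 93.0 CPM (87.6 to 98.5) in basal-like, then 71.2 CPM (64.3 to 78.7) in fibroblast-like cells, and distal luminal-like cells held 32.6 CPM (30.7 to 34.6), with no overlap of neighbouring intervals. The ratio of fibroblast-like to epithelial-like cells was 0.879 (0.791 to 0.974), and it stayed within 2-fold under all 15 alternatives run, with log2 ratios from -0.73 to -0.19. The fibroblast-like level of Wnt4 lay above that of macrophage-like cells, whose upper limit was 33.8 CPM, with 45.5% of the UMIs from 1 cell. The distal luminal-like interval reached that limit. After thinning, Wnt4 was found in 27.1% (23.8 to 30.7) of proximal luminal-like, 15.7% (13.4 to 18.3) of basal-like, 9.92% (7.38 to 13.0) of fibroblast-like and 4.28% (2.88 to 6.09) of distal luminal-like cells. Unthinned shares were 84.7%, 52.9%, 27.3% and 33.6%. Among macrophage-like cells it was 5.26% (1.45 to 12.9) of 76, and 11.4% unthinned, so neither the distal luminal-like nor the fibroblast-like share was separated from background, the intervals of both overlapping it. Median depths were 20663 UMIs in proximal luminal-like, 12013 in basal-like, 10314 in fibroblast-like, 47823 in distal luminal-like and 11922 in macrophage-like cells.

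Both antagonists were higher in fibroblast-like cells, to different degrees. Sfrp2 (ENSMUSG00000027996, chr3:83766321-83774316) measured 433 CPM (416 to 451) there and 0.573 to 0.769 CPM in the 3 epithelial-like classes. All of these lay below 8.91 CPM, where the macrophage-like interval ends. The Sfrp2 ratio was 593 (447 to 804), and fibroblast-like cells gave 97.6% of its UMIs. Sfrp1 (ENSMUSG00000031548, chr8:23411502-23449632) was shared with basal cells. It measured 20.2 CPM (16.6 to 24.4) in fibroblast-like and 10.4 CPM (8.66 to 12.4) in basal-like cells, above the macrophage-like limit, and 1.25 and 0.645 CPM in proximal and distal luminal-like cells, below it. The Sfrp1 ratio of fibroblast-like to epithelial-like cells was 7.77 (6.06 to 9.91). Basal-like cells gave 39.6% and fibroblast-like cells 34.3% of the Sfrp1 UMIs of the library.

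Rspo3 and the receptor gene Lgr4 ran in opposite directions. The receptor gene Lgr5 did not share the pattern of Lgr4, as it was high in fibroblast-like clusters described further on. Rspo3 (ENSMUSG00000019880, chr10:29452416-29535867, minus strand) measured 74.0 CPM (66.9 to 81.6) in fibroblast-like cells and 0.0818 to 0.293 CPM in the epithelial-like classes, below the macrophage-like limit, a ratio of 310 (189 to 548). Lgr4 (ENSMUSG00000050199, chr2:109917647-110014257) was 2.60-fold (2.12 to 3.22) lower in fibroblast-like than in epithelial-like cells. Basal-like cells held 94.1 CPM (88.7 to 99.7) and proximal luminal-like cells 49.6 CPM (46.6 to 52.7) of Lgr4. Distal luminal-like cells followed at 25.4 CPM (23.7 to 27.1), and fibroblast-like cells at 17.5 CPM (upper limit 21.4). No neighbours in that order have overlapping intervals. After thinning, Lgr4 was found in 18.8% (16.3 to 21.6) of basal-like and 2.74% (1.47 to 4.64) of fibroblast-like cells, against 61.3% and 14.1% unthinned. The fibroblast-like share was near the 2.63% (upper limit 9.18) of macrophage-like cells.

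Axin2 (ENSMUSG00000000142, chr11:108920349-108950783) measured 26.1 CPM (22.0 to 30.8) in fibroblast-like cells. Basal-like cells held 12.9 CPM (11.0 to 15.1), distal luminal-like cells 12.5 CPM (11.3 to 13.7) and proximal luminal-like cells 3.51 CPM (2.75 to 4.41) of Axin2, the last below the macrophage-like limit of 3.75 CPM. The basal-like and distal luminal-like intervals overlap. Fibroblast-like cells were 2.67-fold (2.21 to 3.21) above epithelial-like cells in Axin2, a log2 ratio of 1.42, or 1.03 after thinning. The intervals of all these ratios cover counting error only. With 5% free RNA subtracted, 0 counts of Wnt2 and Sfrp2 were left in epithelial-like cells. Over a floor of 3 counts their log2 ratios were 12.34 in place of 8.65 and 13.23 in place of 9.21. That of Rspo3 was 12.31 in place of 8.28, from under 3 counts left. Over 15 alternatives that of Wnt10a ran from 5.78 to 7.51, that of Wnt5a from 4.26 to 5.44 and that of Lgr4 from -2.16 to -1.38, beside 6.83, 4.51 and -1.38. Proximal luminal-like cells held the most Wnt4 and the least Axin2 of these 4 classes. Thinned shares were 5.06% (3.27 to 7.44) of fibroblast-like, 3.10% (1.93 to 4.70) of distal luminal-like, 2.44% (1.53 to 3.67) of basal-like and 1.35% (0.619 to 2.55) of proximal luminal-like cells. Unthinned shares were 20.9%, 28.0%, 12.6% and 9.06%, and 0 of 79 macrophage-like cells had a UMI.

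The rest of the pathway was read from a list of 79 genes that includes the 9, grouped by role. This list too was drawn up with earlier results of these data known, so its counts are descriptions. Fibroblast-like cells were at least 2-fold higher for 38 and lower for 6 of the 68 with enough UMIs, against 27.2% and 14.5% of all genes, with a median log2 ratio of 1.36. Without the 9 genes it was 31 higher and 5 lower of 59, with a median of 1.27. By role, 9 of 13 ligands, 8 of 10 secreted inhibitors, 8 of 18 receptors (4 were lower), 5 of 16 cytoplasmic and nuclear factors and 9 of 11 target genes were higher. The share of the cytoplasmic and nuclear factors was near that of all genes. Wif1, a secreted protein that binds Wnt ligands, was 513-fold (435 to 610) higher, at 1093 against 2.13 CPM. Dkk2, which binds Lrp co-receptors, was 276-fold (185 to 431) higher, and Rspo1 156-fold (63.3 to 496). Sfrp4 was 754-fold (130 to 30251) higher, from 61 UMIs in fibroblast-like cells and 1 in epithelial-like cells. Sp5, the ligand Wnt7b, and the receptors Fzd6 and Lrp5 were the named genes lower in fibroblast-like cells. Sp5 measured 0.920 against 24.1 CPM there, and Wnt7b 0.920 against 11.6 CPM.

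**Figure D2:**
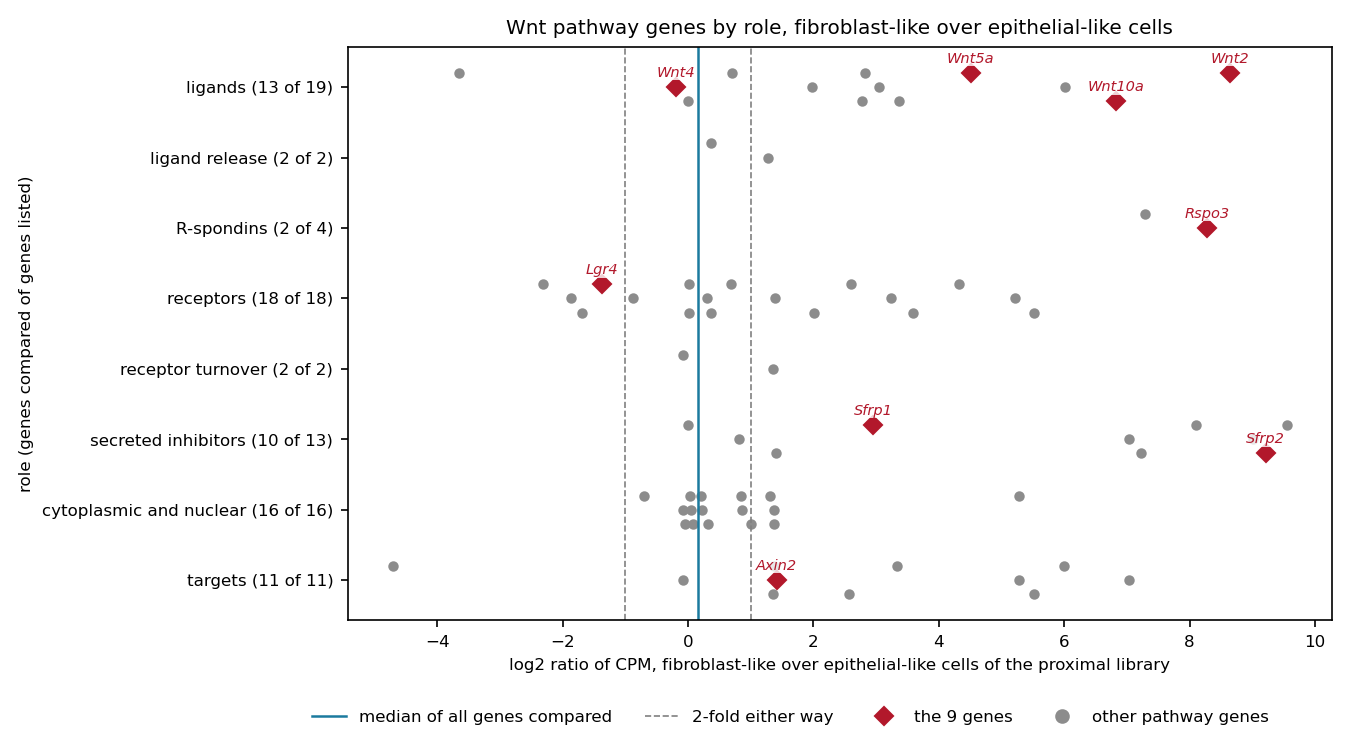
Log2 ratio of CPM in fibroblast-like over epithelial-like cells of the proximal library for each pathway gene with at least 10 UMIs, by role. Red diamonds are the 9 genes, grey circles the other pathway genes, the blue line is the median of all genes compared (0.17) and dashed lines mark 2-fold. A gene listed under 2 roles is drawn under each, and Sfrp2 at 9.21 and Lgr4 at -1.38 are the highest and lowest of the 9.

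Fibroblast-like cells of the proximal library fell into 3 clusters, and each was set against the other fibroblast-like cells. Since the pathway genes were left out of the variable genes used for clustering, their levels did not build the clusters directly, but the clusters come from the same cells and the contrasts are descriptions. Cluster 8, with 240 cells, had the most Srd5a2 (229 CPM against 59.7 in cluster 14), the steroid 5-alpha-reductase that makes dihydrotestosterone. Cluster 14, with 197 cells, had the most elastin (Eln), and cluster 15, with 79 cells, the most Sult1e1, an oestrogen sulfotransferase. These reference genes were picked after the clusters had been seen.

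Cluster 8 was the highest in Wnt2, Wnt10a and Axin2. Wnt2 measured 367 CPM (342 to 394) in cluster 8, 177 CPM (161 to 194) in cluster 14 and 38.8 CPM (26.3 to 55.0) in cluster 15. For Wnt10a the values were 125 CPM (110 to 141), 17.5 CPM (12.6 to 23.5) and 0 UMIs, which allows up to 4.61 CPM by the interval. Axin2 measured 39.6 CPM (31.7 to 48.9) in cluster 8, 16.2 CPM (11.6 to 22.1) in cluster 14 and 20.0 CPM (11.4 to 32.5) in cluster 15, and the intervals of clusters 8 and 15 overlap. Against the other fibroblast-like cells, cluster 8 was 9.47-fold (6.85 to 13.4) higher in Wnt10a, 2.57-fold (2.29 to 2.88) in Wnt2 and 2.31-fold (1.63 to 3.29) in Axin2. These were 3 of 9 genes higher, and 2 were lower, against 8.4% and 10.2% of 13873 genes. Over 8 alternatives the log2 ratio of Wnt10a ran from 2.91 to 5.50, beside 3.24, and that of Wnt2 from 1.18 to 2.68, beside 1.36. Both lower calls were lost under some of them: the log2 ratio of Sfrp2 ran from -1.20 to -0.20, beside -1.14, and that of Rspo3 from -1.72 to -0.96, beside -1.05.

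Target and feedback genes of the pathway were also read in cluster 8, named after their values were seen. Notum, which inactivates Wnt ligands, measured 109 CPM (95.3 to 123) in cluster 8, 17.5 CPM in cluster 14 and 33.8 CPM in cluster 15. Nkd1, an intracellular inhibitor, measured 104, 57.2 and 16.3 CPM, and Lef1 52.5, 20.3 and 6.25 CPM. The ligand Wnt6 measured 137 CPM in cluster 8 against 24.0 and 6.25 CPM. In all, 5 of 10 target genes were at least 2-fold higher in cluster 8 than in the other fibroblast-like cells and 2 were lower, against 8.4% and 10.2% of all genes. The epithelial keratin Krt8 measured 349, 68.2 and 483 CPM in clusters 8, 14 and 15, and its part in these differences was not tested.

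Cluster 14 was the highest in Sfrp2 and Wnt5a. Sfrp2 measured 691 CPM (658 to 724) there, 251 CPM (231 to 273) in cluster 8 and 133 CPM (109 to 160) in cluster 15. Wnt5a measured 66.2 CPM (56.4 to 77.1), 39.6 CPM (31.7 to 48.9) and 16.3 CPM (8.66 to 27.8) in the same order. The stem cell receptor gene Lgr5, of the same Lgr family as Lgr4 and also named after its values were seen, measured 709 CPM in cluster 14. It measured 59.4 CPM in cluster 8 and 213 CPM in cluster 15. In basal-like and proximal luminal-like cells of the proximal library Lgr5 measured 28.9 and 2.79 CPM. Against the other fibroblast-like cells Sfrp2 was 3.15-fold (2.87 to 3.45) higher, 1 of 9 genes against 7.74% of all, and Wnt5a fell just short at 1.99-fold (1.54 to 2.58). With a looser cell filter (200 genes, 20% mitochondrial UMIs) the log2 ratio of Sfrp2 was 0.54 in place of 1.65, under 2-fold. Axin2, Rspo3, Sfrp1 and Wnt10a were lower, against 10.6% of all genes.

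Cluster 15 was the highest in Rspo3 and Sfrp1. Rspo3 measured 238 CPM (205 to 274) there, 45.1 CPM (36.6 to 55.0) in cluster 8 and 46.3 CPM (38.2 to 55.6) in cluster 14. Sfrp1 measured 47.5 CPM (33.6 to 65.2), 23.5 CPM (17.5 to 30.9) and 8.53 CPM (5.28 to 13.0). Against the other fibroblast-like cells, Rspo3 was 5.19-fold (4.25 to 6.35) and Sfrp1 3.06-fold (2.01 to 4.59) higher, 2 of 9 genes against 8.17% of all, and 4 were lower against 10.1%. Wnt10a, with 0 UMIs, was at least 14.6-fold lower in cluster 15 by the exact interval, and 18.1-fold over a floor of 3 counts. Wnt4 and Lgr4 differed by less than 2-fold in each of the 3 contrasts. With the looser cell filter 1 cluster held both the most Eln and the most Sult1e1, so that these contrasts were the same. The log2 ratio of Sfrp1 was then 0.00, in place of 1.61 in the Sult1e1 and -1.81 in the Eln cluster, so that neither call was made. That of Rspo3 was 1.14, in place of 2.38 and -1.07, that of Sfrp2 0.54, in place of -1.87 in the Sult1e1 cluster, and that of Wnt5a -0.48, in place of -1.72 there. The lower call of Rspo3 in the Eln cluster was also lost with at least 1000 genes a cell and after thinning.

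**Figure D3:**
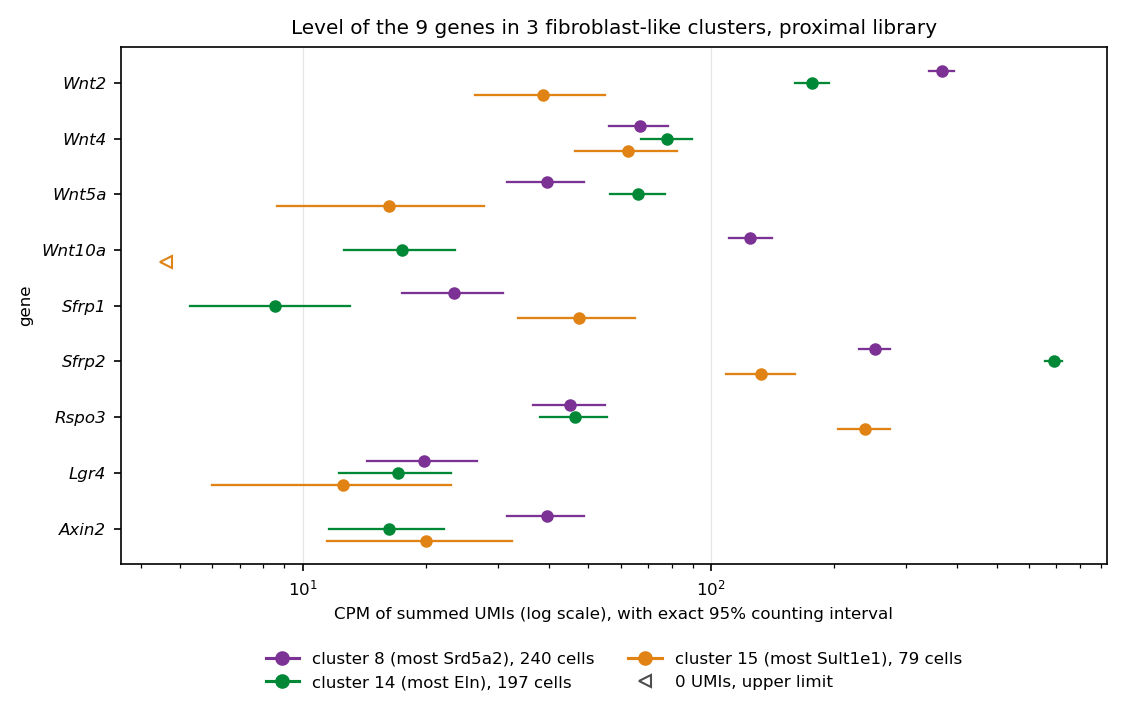
Level of the 9 genes (CPM of summed UMIs, log axis) in the 3 fibroblast-like clusters of the proximal library, with exact 95% counting intervals. Wnt2 and Wnt10a are highest in cluster 8 (367 and 125 CPM), Sfrp2 in cluster 14 (691 CPM) and Rspo3 in cluster 15 (238 CPM), while the Wnt4 and Lgr4 points lie close together. The open triangle is the upper limit for 0 UMIs.

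Detection in the same cell was read after thinning to 2000 UMIs, and it followed the clusters only in part. Among 474 fibroblast-like cells, Wnt10a was found in 36 of the 133 with a Wnt2 UMI, 27.1%, and in 15 of the 341 without, 4.40%. Within cluster 8 alone it was 31 of 86 cells, 36.0%, against 12 of 128, 9.38%. Rspo3 went the other way, found in 7 of the 133 cells with a Wnt2 UMI, 5.26%, and in 58 of the 341 without, 17.0%. Axin2 was found in 10 of 133 and 14 of 341 cells, 7.52% and 4.11%. Sfrp2 was found in 69 of the 133 cells with a Wnt2 UMI, 51.9%, against 113 of 341, 33.1%, and within cluster 8 in 44.2% against 21.1%. Axin2 was found in 2 of 51 cells with a Wnt10a UMI, 3.92%, and in 22 of 423 without, 5.20%. Cells are not replicates, and these counts describe 1 library.

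Basal-like and proximal luminal-like cells were compared next, in each library. In the proximal library 3 of the 7 genes with enough UMIs were higher in basal-like cells and 0 lower, against 18.2% and 14.9% of 16996 genes, 33.1% in all. Sfrp1 was 8.32-fold (5.42 to 13.2) higher, at 10.4 against 1.25 CPM, and Axin2 3.68-fold (2.77 to 4.93), at 12.9 against 3.51 CPM. Wnt10a was 54.5-fold (9.10 to 2218) higher, from 32 UMIs against 1, and the width of that interval comes from the 1 UMI. At a Leiden resolution of 0.5, its log2 ratio was 2.27 in place of 5.77. Thinned to 2000 UMIs, Sfrp1 had a log2 ratio of 1.15 in place of 3.06, and with the looser cell filter Axin2 had 0.93 in place of 1.88, under 2-fold. Lgr4 at 1.90-fold (1.74 to 2.07) and Wnt4 at 0.606 (0.566 to 0.648) lay within 2-fold. Of the wider list, the receptors Fzd2, Ror1 and Lgr5 and the ligand Wnt11 were named as higher in basal-like cells, Fzd2 30.8-fold (16.4 to 65.3), and 23 of 56 genes were higher and 1, Dkk3, lower. The direction of Dkk3 turned at a resolution of 0.5.

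Of the 3 basal-like clusters of the proximal library, 1 stood apart in Axin2. Axin2 measured 15.8 CPM (12.9 to 19.2) in the Krt14-led cluster 6 and 23.0 CPM (16.0 to 32.0) in cluster 13, which Trp63 led, with overlapping intervals. In cluster 11, which had the most involucrin (Ivl), a protein of differentiating squamous cells, it measured 4.93 CPM (3.05 to 7.54). Cluster 11 was 3.49-fold lower in Axin2 than the other basal-like cells, a ratio of 0.287 (0.172 to 0.456), and 3.12-fold (1.45 to 6.99) higher in Wnt10a, from 20 against 12 UMIs. These were 1 of 6 genes in each direction, against 8.2% of genes higher and 21.7% lower. With at least 1000 genes a cell the log2 ratio of Wnt10a was 1.03 in place of 1.64. Wnt4 was 1.79-fold (1.59 to 2.01) higher in it.

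In the ventral library only Lgr4 and Wnt4 had enough UMIs for the basal-like and proximal luminal-like comparison, and 0 of these 2 were 2-fold apart, against 37.7% of 9996 genes. Wnt4 measured 136 CPM (111 to 166) in basal-like and 113 CPM (96.5 to 132) in proximal luminal-like cells. Lgr4 measured 25.9 CPM (15.6 to 40.4) and 34.7 CPM (25.7 to 45.9). The intervals overlap within each gene, and without the cells with over 5% Sbp and Spink1 the log2 ratio of Wnt4 was -0.77 in place of 0.26. Axin2 was found as 2 UMIs in ventral basal-like and 1 in ventral proximal luminal-like cells, too few to compare.

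The luminal classes were then compared with each other. In the ventral library Wnt4 measured 113 CPM in proximal luminal-like and 5.26 CPM in distal luminal-like cells, 21.5-fold (17.5 to 26.4) higher. In the proximal library the values were 153 and 32.6 CPM, 4.71-fold (4.40 to 5.05) higher. Without the ventral cells of other classes with over 5% Sbp and Spink1, an alternative added after seeing the data, the ventral log2 ratio was 5.45 in place of 4.43. In the ventral library Lgr4 was also higher, 3.45-fold (2.52 to 4.64), at 34.7 against 10.1 CPM, so 2 of the 6 genes with enough UMIs were higher, against 36% of 14074 genes higher and 38.2% apart either way. All-gene values were shifted there, with a median log2 ratio of 0.71. With the 100 most abundant genes left out of the totals, the share of 2-fold calls that were higher fell from 94.1% to 63.1%, and the log2 ratio of Wnt4 was 3.69 in place of 4.43 and that of Lgr4 1.04 in place of 1.79.

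In the proximal library Axin2 was lower in the named proximal luminal-like cells, where Wnt4 was higher. Axin2 measured 3.51 CPM in proximal luminal-like and 12.5 CPM in distal luminal-like cells, 3.56-fold (2.77 to 4.63) lower, a log2 ratio of -1.83. It was -0.86 with the looser cell filter and -0.99 at resolution 0.5, both under 2-fold, and -1.13 with the unnamed clusters in their best-scoring class. Unnamed clusters 2 and 3, with more Wnt4 than this class, held 11 and 9.5 CPM of Axin2. Wnt5a, 3.11-fold (1.91 to 5.30) lower, and Wnt2, from 5 against 31 UMIs, were the other genes lower, against 18.1% of 17879 genes, and Wnt4 was the 1 gene higher, against 25.4%, or 43.5% either way. That count of 4 genes was 7 or 8 under 5 alternatives and 2 after thinning, where the log2 ratio of Wnt5a was 0.02 in place of -1.64. Both classes' levels of Wnt2 and Wnt5a were below the limits of macrophage-like cells. Of the 31 Wnt2 UMIs in distal luminal-like cells, 35.5% came from 1 cell, and the direction turned, to a log2 ratio of 0.19, once the highest doublet scores were removed. Of the target genes, 0 of 10 were higher and 5 were lower in proximal luminal-like cells, among them Sp5, at 1.63 against 45.6 CPM, and Nkd1, at 0.192 against 12.6 CPM. Leaving out the 100 most abundant genes moved the share of higher calls from 58.4% to 42.8%, with 1 of the 9 genes higher and 3 lower as before.

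Within the distal luminal-like class, Wnt4 and Sp5 were highest in 1 cluster of each library, where Axin2 was also above the rest of the class. It was the cluster with the most Msmb, a secreted prostate protein: cluster 7 of the proximal library, with 163 of 706 cells, and cluster 3 of the ventral library, with 96 of 1668. In the proximal library, Wnt4 measured 77.1 CPM (72.0 to 82.4) in this cluster against 11.4 CPM in the other distal luminal-like cells, 6.77-fold (5.89 to 7.81). Axin2 measured 28.1 CPM (25.1 to 31.5) against 5.02 CPM, 5.61-fold (4.51 to 7.001), and Wnt5a 6.90 CPM (5.44 to 8.64) against 1.13 CPM. Cluster 16 of the same class held as much Axin2, 29.5 CPM (15.2 to 51.5) from 12 UMIs. Sp5 measured 133 CPM (126 to 140) against 4.15 CPM, while the target Nkd1 was lower, at 6.45 against 15.6 CPM.

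In the ventral library, Wnt4 measured 65.2 CPM (55.5 to 76.0) in the Msmb cluster against 1.74 CPM in the other distal luminal-like cells, 37.5-fold (28.3 to 49.99). Sp5 measured 45.2 CPM (37.2 to 54.3) against 0.212 CPM. Axin2 measured 6.80 CPM (3.96 to 10.9), from 17 UMIs against 1 in the 1572 other cells, a ratio of 289 (45.3 to 12081). With every cell thinned to 2000 UMIs, 1 of 1660 ventral distal luminal-like cells held an Axin2 UMI. The log2 ratio, 2.44 in place of 8.18, then rests on that cell and the floor of 3 counts. The Msmb cluster thus held 163 of the 237 Wnt4 UMIs and 17 of the 18 Axin2 UMIs of ventral distal luminal-like cells. Lgr4 stayed within 2-fold in both libraries, at 0.90 (0.775 to 1.04) and 0.827 (0.506 to 1.28). Counting Wnt5a, 3 of 8 genes in the proximal and 3 of 6 in the ventral library were higher, against 10.5% and 13.2% of all genes, and 1 in each was lower, from 1 UMI in the cluster, against 7.53% and 4.64%. Ventral Wnt5a rested on 3 UMIs in the cluster, with a ratio of 3.92 (0.717 to 14.3).

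**Figure D4:**
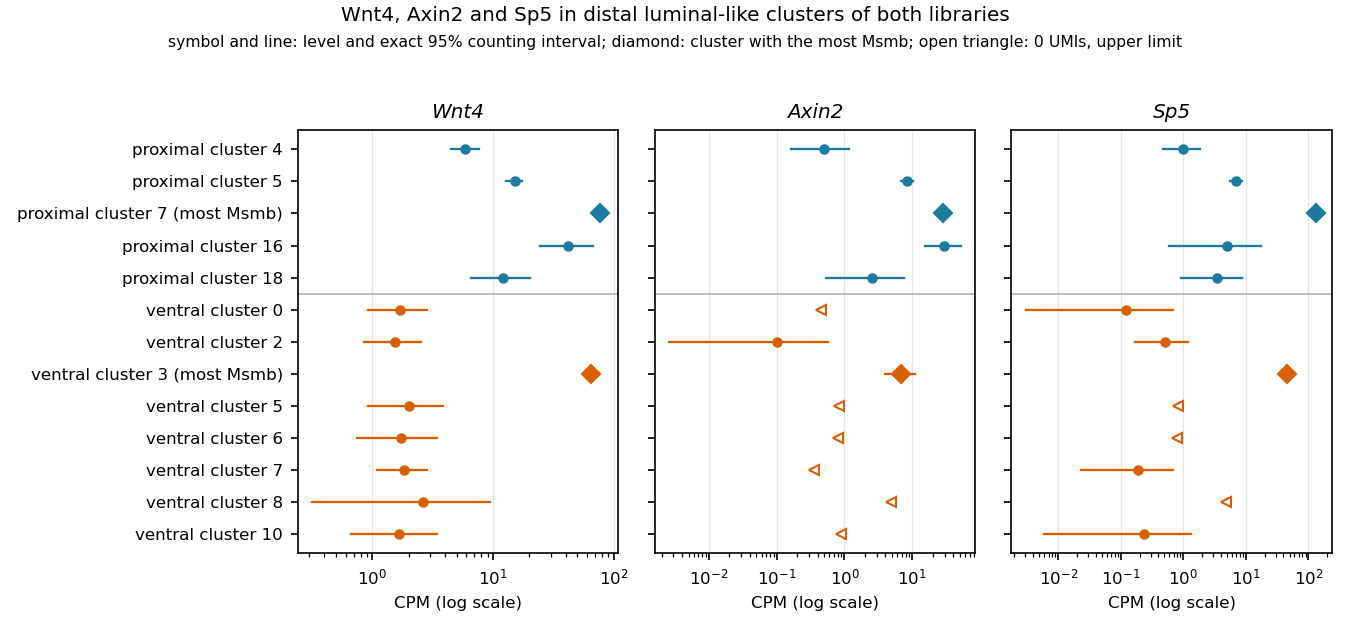
Wnt4, Axin2 and Sp5 (CPM of summed UMIs, log axis) in each distal luminal-like cluster of the proximal (blue) and ventral (orange) library, with exact 95% counting intervals. Diamonds are the clusters with the most Msmb, at 77.1 and 65.2 CPM of Wnt4, and open triangles are upper limits for 0 UMIs. Cluster 16 of the proximal library, with 52 cells, has an Axin2 level as high as that of cluster 7.

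The other distal luminal-like clusters of the proximal library ranged widely in Axin2. Cluster 5, with 241 cells and led by Ren1 and Tgm4, measured 8.36 CPM (6.77 to 10.2) of Axin2, 15.1 CPM (12.9 to 17.5) of Wnt4 and 27.9 CPM (24.9 to 31.1) of Nkd1. Cluster 16, with 52 cells at a median of 5615 UMIs, measured 29.5 CPM (15.2 to 51.5) of Axin2 from 12 UMIs. Cluster 4, with 160 cells, had the most Sbp, the product that also dominates the ventral library, and measured 0.498 CPM (0.162 to 1.16) of Axin2 and 5.87 CPM (4.47 to 7.57) of Wnt4. For comparison, ventral distal luminal-like cells as a whole held 0.400 CPM (0.237 to 0.632) of Axin2 and 5.26 CPM (4.61 to 5.98) of Wnt4.

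The libraries differ in region and in kit version, and these cannot be told apart. In distal luminal-like cells all 8 genes with enough UMIs were 2-fold apart, 6 higher and 2 lower in the proximal library, against 47.6% of 17092 genes higher and 2.91% lower, 50.5% in all. Axin2 was 31.2-fold (19.5 to 53.2) higher, Wnt5a 8.41-fold (4.94 to 15.3), Wnt4 6.19-fold (5.38 to 7.16) and Lgr4 2.52-fold (2.25 to 2.83). Wnt2 and Sfrp2 had 0 ventral UMIs there and were at least 10.4-fold and 8.66-fold higher by the exact interval, and 13.6-fold and 11.4-fold over a floor of 3 counts in the class. Their proximal levels were at the background of macrophage-like cells. Sfrp1 and Rspo3 were lower, from 22 against 69 and 10 against 29 UMIs. The median log2 ratio of all genes was 0.94, beside 1.34 for Lgr4. With the 100 most abundant genes left out, the share of calls that were higher fell from 94.2% to 74.5%, 5 of the 9 genes were higher and 2 lower, and Lgr4, at a log2 ratio of 0.61, was under 2-fold. After thinning to 2000 UMIs 3 genes were called. Their thinned log2 ratios were 5.94 for Axin2, 1.59 for Wnt4 and 1.14 for Lgr4. That of Axin2 rests on 1 of 1660 thinned ventral cells of the class with a UMI. Wnt2, Wnt5a, Sfrp1, Sfrp2 and Rspo3 had under 10 UMIs left and were not called, Wnt5a with a log2 ratio of 1.29 in place of 3.07. The clusters that fill this class differ, as most ventral cells lie in Sbp-rich clusters and most proximal cells in clusters 5 and 7. Between the Msmb clusters alone, Wnt4 measured 77.1 CPM in the proximal and 65.2 CPM in the ventral library, with overlapping intervals, while Axin2 measured 28.1 and 6.80 CPM and Sp5 133 and 45.2 CPM.

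In proximal luminal-like cells 1 of 6 genes was 2-fold higher in the proximal library and 0 lower, against 20.7% and 15.1% of 15544 genes. That gene was Axin2, from 73 UMIs against 1, a ratio of 4.95 (0.861 to 198) whose interval includes 1. Without the cell with the most UMIs in each group it had no ventral UMI, and 0 genes were called. Wnt4, at 1.35-fold (1.15 to 1.60), and Lgr4, at 1.43-fold (1.07 to 1.94), lay within 2-fold. The direction of Wnt4 turned, to a log2 ratio of -0.58 in place of 0.44, without the ventral cells with over 5% Sbp and Spink1. With the 100 most abundant genes left out, the share of higher calls over all genes went from 57.7% to 40.1%.

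In basal-like cells 3 of 6 genes were higher in the proximal library and 1 lower, against 23.5% and 18% of 14750 genes, 41.5% in all. Lgr4 measured 94.1 against 25.9 CPM, 3.63-fold (2.32 to 6.06) higher. Axin2 was 4.74-fold (1.29 to 39.5) higher, from 158 UMIs against 2. After thinning 0 of 138 ventral basal-like cells held an Axin2 UMI. The log2 ratio, 0.29 in place of 2.25, is then over a floor of 3 counts. Sfrp1, with 127 UMIs against 0, was at least 2.04-fold higher by the exact interval, 2.54-fold over a floor of 3 counts, and was not called after thinning. Wnt5a was the gene lower, from 20 UMIs against 3, a ratio of 0.400 (0.119 to 2.10). Without the cell with the most UMIs in each group the log2 ratio of Wnt5a was 0.03, the other direction. Wnt4, at 0.682 (0.556 to 0.846), lay within 2-fold. The fibroblast markers that differ between the 2 basal-like groups, 1343 and 5355 CPM, stand beside these values, and their part was not tested. In the whole ventral library Wnt2 had 1 UMI, Sfrp2 0 and Wnt10a 2.

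Genes most like each of the 9 were sought over the 19 proximal clusters of at least 30 cells, by Pearson's r of log2(CPM + 5) among 12965 genes. All points share 1 library, and r is a description. The 2 closest were Egflam and Vstm4 for Wnt2 (0.994 and 0.993), Hhip and Srpx2 for Sfrp2 (0.995 and 0.992), and Fgf10 and Lox for Rspo3 (0.996 and 0.993). They were Wasf3 and Slc38a5 for Wnt5a (0.972 and 0.965) and Apela and Sst for Wnt10a (0.974 and 0.973). For Wnt4 they were Prr16 and Lancl3 (0.907 and 0.883), for Sfrp1 Robo1 and Kcne4 (0.908 and 0.907), for Lgr4 Pawr and Cdcp1 (0.937 and 0.914), and for Axin2 Acly and Cul7 (0.863 and 0.856). Among the 9 genes themselves r was 0.969 for Wnt2 and Sfrp2, 0.943 for Wnt2 and Wnt5a, and 0.628 for Wnt4 and Lgr4. Of the 19 clusters 3 are fibroblast-like, and genes high in all of these can have a high r whatever their order within them. For Wnt2 and Rspo3 r was 0.838, although they peaked in different fibroblast-like clusters. Axin2 had its highest r with Wnt5a, 0.665, and 0.214 with Wnt4.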

How the data were processed

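The values are raw UMI counts per gene and barcode, deposited as made with Cell Ranger 7.0.0 on mm10, per the submitters' processing notes. Coordinates are those of GENCODE M21 on GRCm38, where 32235 of the 32285 genes were matched by identifier. The tools were scanpy 1.11.5, igraph 0.11.9, anndata 0.12.19, pandas 2.3.3, numpy 2.4.6, scipy 1.17.1 and matplotlib 3.10.9 under Python 3.11.15.

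Barcodes with under 500 genes or over 10% mitochondrial UMIs were removed, 226 ventral and 635 proximal. Scrublet called 0.193% of 5704 cells doublets, too few to rely on, and how many doublets are left was not measured. Libraries were clustered separately (cells scaled to 10000 UMIs, 2000 variable genes without the Wnt pathway list, 30 principal components, 15 neighbours, Leiden resolution 1, seed 0). Clusters were named from marker lists with at least 3 markers detected, and 1 ventral and 3 proximal clusters stayed unnamed.

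UMIs were summed per class. A gene was called at 2-fold, with at least 10 UMIs in both groups together and a floor of 3 counts in place of 0. Intervals are exact at 95% (Poisson for levels, conditional on the total for ratios, Clopper-Pearson for shares). With 1 library per group no test was made. The steps were tested on simulated data. The 9 genes, the pathway list and the marker lists were chosen with earlier results of these data known. Pathway genes were named by rule: up to 4 in each direction by ratio, with at least 10 CPM in 1 group. The cluster reference genes, the genes set beside them and 3 of the alternatives (unnamed clusters in their best-scoring class, totals without the 100 most abundant genes, and removal of cells in which Sbp and Spink1 exceed 5%) were chosen after the data had been seen. The other alternatives varied cell filters, doublets, clustering, free RNA, thinning, the UMI minimum and the fold.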

Additional observations from a re-analysis of the deposited data

Results flagged for a closer look

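These values come from proximal clusters outside the comparisons, and each lies above the level in macrophage-like cells. Clusters 2, 3 and 10, with 280, 255 and 166 cells, stayed unnamed because markers of a different class outnumbered their own among the leading genes. That class was periurethral for clusters 2 and 10 and erythroid for cluster 3. Wnt4 measured 306 CPM in cluster 2, 226 CPM in cluster 3 and 178 CPM in cluster 10. Lgr4 measured 54.6, 43.3 and 65.6 CPM in the same clusters. Axin2 measured 11 CPM (8.49 to 14.1) in cluster 2 and 9.5 CPM (7.41 to 12.0) in cluster 3. Cluster 21, 26 cells like seminal vesicle epithelium, held 52.6 CPM of Wnt4.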

How the results depend on the processing

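The call counts for fibroblast-like against epithelial-like cells ranged from 6 to 8 over 17 alternatives, beside 8 reported. For proximal over distal luminal-like cells of the proximal library, with 4 genes called, the count was 7 with the looser cell filter, with at least 1000 genes and at resolution 0.5, 8 with more variable genes and with unnamed clusters in their best-scoring class, 2 after thinning to 2000 UMIs and 1 at 4-fold. For proximal luminal-like cells between libraries, with 1 called, it was 2 with the looser filter, at resolution 2, with a minimum of 1 UMI, with unnamed clusters added and without the 100 most abundant genes, and 0 after thinning and without the top cell. For basal-like over proximal luminal-like cells, with 3 called in the proximal library, it was 5 with the highest doublet scores removed and at resolution 0.5, and 2 after thinning and at 4-fold. In the ventral library, with 0 called, it was 1 with a minimum of 1 UMI. Between libraries, distal luminal-like cells (8 called) gave 3 after thinning and 5 at 4-fold, and basal-like cells (4 called) gave 1 under each. Proximal over distal luminal-like cells of the ventral library (2 called) gave 1 at 4-fold.

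Among ratios reported as 2-fold apart, some turned direction or went to 0, among them the following (log2 values). With the looser cell filter, where 1 cluster held both the most Eln and the most Sult1e1, Rspo3 in the Eln cluster was 1.14, Sfrp1 there 0.00, with no direction, and Sfrp2 in the Sult1e1 cluster 0.54. With the highest doublet scores removed, Wnt2 in proximal over distal luminal-like cells of the proximal library was 0.19. At resolution 0.5 Dkk3 in basal-like over proximal luminal-like cells was 0.56. Without the top cell Wnt5a in basal-like cells between libraries was 0.03. After thinning, Wnt5a in proximal over distal luminal-like cells of the proximal library was 0.02, Bcl9 in proximal luminal-like cells between libraries 0.73, and Rspo3 in the proximal Msmb cluster 1.71. As 0 of 678 thinned cells of that class held an Rspo3 UMI, 1.71 comes from the floor alone. Thinning also gave 0.00 for Sfrp1 in the ventral Msmb cluster and in basal-like cells between libraries. The same value was found for Sfrp2 in distal luminal-like cells between libraries. Of ratios under 2-fold, 3 turned and left their counting interval: without the Sbp and Spink1 cells, Wnt4 in proximal luminal-like cells between libraries (-0.58) and in ventral basal-like over proximal luminal-like cells (-0.77), and after thinning Wnt5a in proximal basal-like over proximal luminal-like cells (-0.44). In 26 further recomputations the sign changed within the interval. In the Eln cluster Sfrp2, and in the Sult1e1 cluster Sfrp1, lost their higher call with the looser filter. Causes were not tested.

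Of 1477 class ratios recomputed, 1260 stayed within the counting interval of the reported value, 212 moved beyond it and 5 turned, and of 218 cluster ratios 180, 34 and 4. Resolution 0.5 gave 1 fibroblast-like cluster and so no value for the fibroblast cluster contrasts. No paired analysis was possible because each group had 1 library. Counts under about 10 UMIs limit Axin2, Sfrp1 and Wnt5a in ventral basal-like and proximal luminal-like cells.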
